A study of Mus musculus with 8 samples.

Results

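Histone genes were picked from the gene table by their names. Rows with a mouse Ensembl gene identifier were taken when the symbol followed the cluster nomenclature of the linker histones (H1f and a number) or of the core histones (H2ac, H2bc, H3c or H4c and a number), or the older Hist1h to Hist4h form. The rule took 72 of 57353 rows. They comprised 12 genes of class H1, 19 of H2A, 17 of H2B, 12 of H3 and 12 of H4, and 56 of them lie on chromosome 13. Of the 72, 63 carry the names of replication-dependent genes. The other 9 are H1f0 and H1f10, which encode replacement linker histones, the 4 germ cell linker genes H1f6 to H1f9, and the 3 annotated pseudogenes H1f11-ps, H2ac5-ps and H2ac14. H1f0 alone held 66.8% of all counts of the 72 rows, so the summed signal of the set is not mainly that of replication-dependent genes, and the set is called here by its names, the cluster-named histone genes.

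Core histones H2A, H2B, H3 and H4 form the protein spool of the nucleosome, and linker histone H1 binds the DNA where it enters and leaves. Replication-dependent histone genes are transcribed in S phase, when new DNA must be packaged, and their mRNAs characteristically end in a short stem-loop and carry no poly(A) tail. The stem-loop is bound by SLBP, and cleavage just behind it is guided by the U7 small nuclear RNP. Replacement histones such as H1f0, H2A.Z and H3.3 are made outside S phase as well, from polyadenylated mRNAs. Some replication-dependent genes also yield polyadenylated mRNA when transcription runs past the stem-loop to a later poly(A) site.

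The cells were B16-OVA, a mouse melanoma line made from B16F10 to express the model antigen ovalbumin, with the genotype given as WT. In the 4 HMF libraries the cells had been incubated for 24 h with MagRMs, magnetic micromotors shaped as rods, and had then received a high-frequency magnetic field (HMF). The 4 Control libraries came from cells left untreated, with neither micromotors nor field, and RNA was collected 6 h after treatment. No library had only the micromotors or only the field, so their effects cannot be told apart. The groups were read from the titles, since the treatment tag is identical for all 8 samples. The labels do not state whether the 4 libraries of a group were grown apart. The p-values therefore rest on differences among the sequenced libraries, and these differences may be technical only.

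Total counts were 14159514 to 19295358 in HMF libraries and 13973961 to 17497913 in Control libraries. HMF 4 stood apart from the other HMF libraries, with a chi-square per degree of freedom of 16.4 to 32.3, and Control 1 and 2 stood apart from Control 3 and 4, with 15.8 to 18.8. No pair of libraries in a group agreed within sampling noise. All 7 melanocyte markers were detected, with a summed level of 12417 to 15226 CPM in HMF and 16432 to 18436 CPM in Control. The macrophage markers Adgre1 and Itgam, the fibroblast marker Thy1 and the T cell markers Cd3e, Cd3d and Cd8a were at 0 in every library. The 6 macrophage markers summed to 14.2 to 15.4 CPM in HMF and 8.10 to 11.5 CPM in Control, mostly Cd68, which other cells also express. The 5 fibroblast markers summed to 8.08 to 12.1 CPM in HMF and 14.1 to 29.0 CPM in Control. The part of these differences in the histone results was not tested. In bulk RNA, fewer cells of a kind and less RNA per cell cannot be told apart.

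The libraries were made from RNA captured by its poly(A) tail, so the annotated transcript ends of the histone genes were examined first. All 72 genes were matched by identifier to GENCODE M21 on GRCm38. The consensus stem-loop was searched with C or T allowed at each of the 2 bases after its opening GG. A or G was allowed at the base before its closing GCC. It was found with no mismatch in transcripts of 30 of the 72 genes and of only 6 other genes. That is 36 of 55450 annotated genes (0.0649%). In the 30 genes the element read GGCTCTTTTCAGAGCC or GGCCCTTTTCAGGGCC. A further 13 of the 72 held it with 1 or 2 mismatches. A gene without a match does not thereby lack the element, since several annotated transcripts stop too early to hold it. Those of H2bc13, H3c10, H4c12 and H1f5 end at the stop codon, and that of H1f1 ends within the element. Of the 12 genes that later passed the count filter, 8 held the exact element. One stem-loop of each class, taken from these 8 genes, is printed to show how closely the element is kept, with the 16 bases of the stem-loop in capitals and 5 bases on either side, 5′ to 3′, as DNA letters.

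H1f2: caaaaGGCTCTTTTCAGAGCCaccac
H2ac6: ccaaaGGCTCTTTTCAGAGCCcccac
H2bc8: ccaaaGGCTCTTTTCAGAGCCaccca
H3c4: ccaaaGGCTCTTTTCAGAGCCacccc
H4c8: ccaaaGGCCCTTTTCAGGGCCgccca

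The H1, H2A, H2B and H3 elements share the same 16 bases, and the H4 element has the second form. What follows the element differs among the annotated transcripts. In H4c8 the longest annotated transcript ends 46 bases after the stem-loop and in H2bc8 155 bases after it. It goes on for 752 bases in H3c4, 840 in H1f2, 1153 in H1f4, 1861 in H2bc6, 2010 in H2ac6 and 4884 in H1f3. The 4 tested genes without the exact element were H1f0, H2bc4, H2bc21 and H4c9, and H4c9 had it with 1 mismatch.

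The last 30 annotated bases of 3 of the most counted genes are shown because they hold a canonical poly(A) signal, AATAAA, which is in capitals.

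H1f0: aactttaaAATAAAactggaaaggaaaaaa
H1f2: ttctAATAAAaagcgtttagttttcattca
H2bc21: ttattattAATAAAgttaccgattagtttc

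H1f2 thus holds both a stem-loop and, 840 bases beyond it, an annotated end with a poly(A) signal. H1f0 and H2bc21 hold the signal without the exact stem-loop. Among the other tested genes, H2bc6, H4c8 and H4c9 held AATAAA or ATTAAA in their last 50 annotated bases. Neither was present there in H2bc4, H1f3, H1f4, H2ac6, H2bc8 or H3c4.

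Of the 72 genes, 12 passed the filter on low counts and were tested, 31 had counts below it, and 29 had no count in any library. A count of 0 allows a level of up to 0.155 to 0.215 CPM, depending on the library, taken as 3 counts and covering counting error only. The tested genes were 4 of 12 in class H1, 1 of 19 in H2A, 4 of 17 in H2B, 1 of 12 in H3 and 2 of 12 in H4. By kind, the test reached 11 of the 63 replication-dependent genes and H1f0. The tested genes had longer gene models in the deposited table, with a median of 1745 bases, against 620 in those below the filter and 444 in those without counts. Among genes with the exact stem-loop, the annotated transcript ran on past it for a median of 996.5 bases (46 to 4884) in the 8 tested genes. It ran on for 46 bases (11 to 1214) in 13 genes below the filter and for 31 bases (3 to 1167) in 9 genes without counts. These are descriptions of the annotation, and the place where captured RNA ended was not measured.

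Histone genes of a class are close copies of one another, and reads that match several genes may be lost or split in counting. Transcript stretches of 50 bases were therefore compared with those of all other annotated genes. A median of 20.6% of such stretches was shared with another gene for the 12 tested genes (0 to 49.7%), 43.2% for genes below the filter (0 to 97.3%) and 85.6% for genes without counts (0 to 100%). H1f0 and H2bc21 shared none, H1f2 shared 8.54% and H2bc4 30.1%. A row at 0 for a gene with much shared sequence does not show that the gene was silent. Overlap is a further limit, since 28 of the 72 rows overlap another row of the table, 4 of the tested genes and 16 of those without counts among them. Every H2A row, H2ac6 included, is among the 28. The part of this in the low H2A counts was not tested. H2bc6 and H1f4 overlap on the same strand, so their counts are uncertain.

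**Figure D1:**
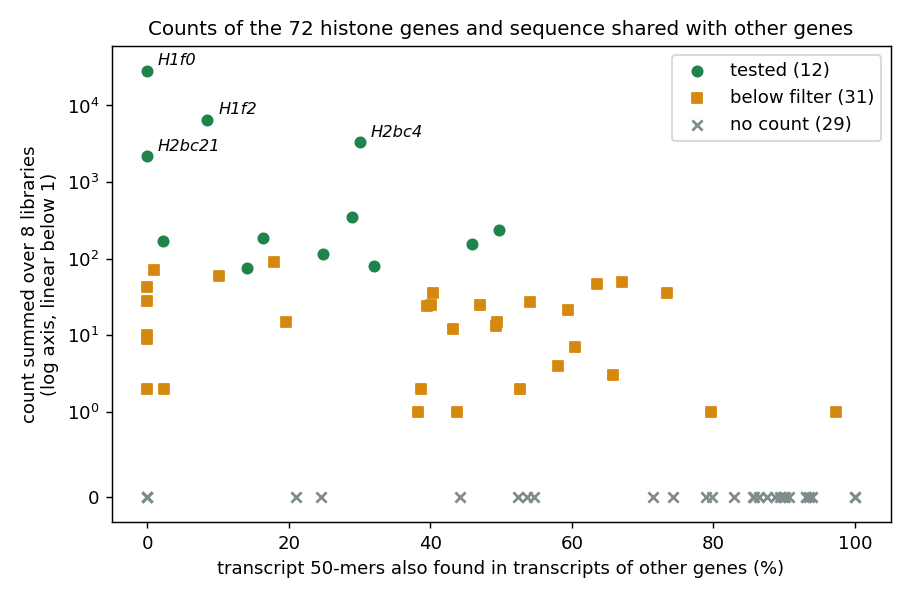
Each point is one of the 72 histone genes. The x axis gives the percentage of its 50-base transcript stretches that also occur in another gene, and the y axis its count summed over the 8 libraries on a log axis that is linear below 1. Tested genes lie at 49.7% or below, while most of the 29 genes without counts lie at the right.

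Controls for the capture step were scarce. Of 12 RNAs known to lack a poly(A) tail, such as Terc and Rnu7, the RNA of the U7 particle, 8 had a row in the table. Of these, 7 had no count in any library, and Rnu12 had 6 counts over all 8. The share of 18S ribosomal RNA, which also lacks a tail, was 0.561% ± 0.114 of counts in HMF and 0.734% ± 0.194 in Control (SD, n = 4 each). The cluster-named histone genes took 0.0332% ± 0.00249 of all counts in HMF and 0.0335% ± 0.00246 in Control (SD, n = 4 each), a log2 ratio of −0.01. The share of the set did not differ beyond its spread between the libraries. Tail-free histone mRNA, the bulk form in dividing cells, was not measured apart from the polyadenylated form. The counts do not show which form they came from.

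The signal was concentrated in few genes. H1f0 held 66.8% of the set's counts, H1f2, H2bc4 and H2bc21 together held 28.3%, and the remaining 68 rows held 4.84%. The 60 untested rows together had 681 counts in the 8 libraries, or 1.60% of the set's. Per length, the deposited FPKM of H1f0 averaged 109 ± 7.12 in HMF and 108 ± 7.96 in Control. H1f2 followed with 34.2 ± 3.78 FPKM in HMF and 31.5 ± 3.16 in Control, then H2bc4 with 22.6 ± 3.41 FPKM in HMF and 22.9 ± 3.33 in Control (SD, n = 4 each). H2bc21 came next with 5.18 ± 0.648 FPKM in HMF and 7.95 ± 0.373 in Control. The tested genes with the lowest FPKM were H1f3, with 0.186 ± 0.0437 in HMF and 0.168 ± 0.0341 in Control, and H2ac6, with 0.191 ± 0.0791 in HMF and 0.288 ± 0.0757 in Control.

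Of the 12 tested histone genes, 1 fell in HMF, H2bc21, and none rose (edgeR quasi-likelihood test, adjusted p below 0.05 over all genes). That is 8.33% called lower, where 13.0% of all 15082 tested genes were called lower and 13.7% higher. None rose at an unadjusted p under 0.05 or by DESeq2 either. A log2 fold change below 0 was found for 6 of the 12 and above 0 for the other 6, with a median of −0.14, against −0.02 over all tested genes. Unadjusted p-values under 0.05 were found for 3 of the 12 (25%), H2bc21, H2bc6 and H3c4, each lower in HMF, while 19.2% of all tested genes were lower at that threshold and 38.0% passed it in either direction. All 4 HMF libraries lay below all 4 Control libraries for 2 of the 12 (16.7%), against 14.4% of all tested genes. They lay above for none of the 12, against 14.7% of all tested genes. The shares called and separated were thus near or below those of all genes, in a set of 12 where 1 gene weighs 8.33%.

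**Figure D2:**
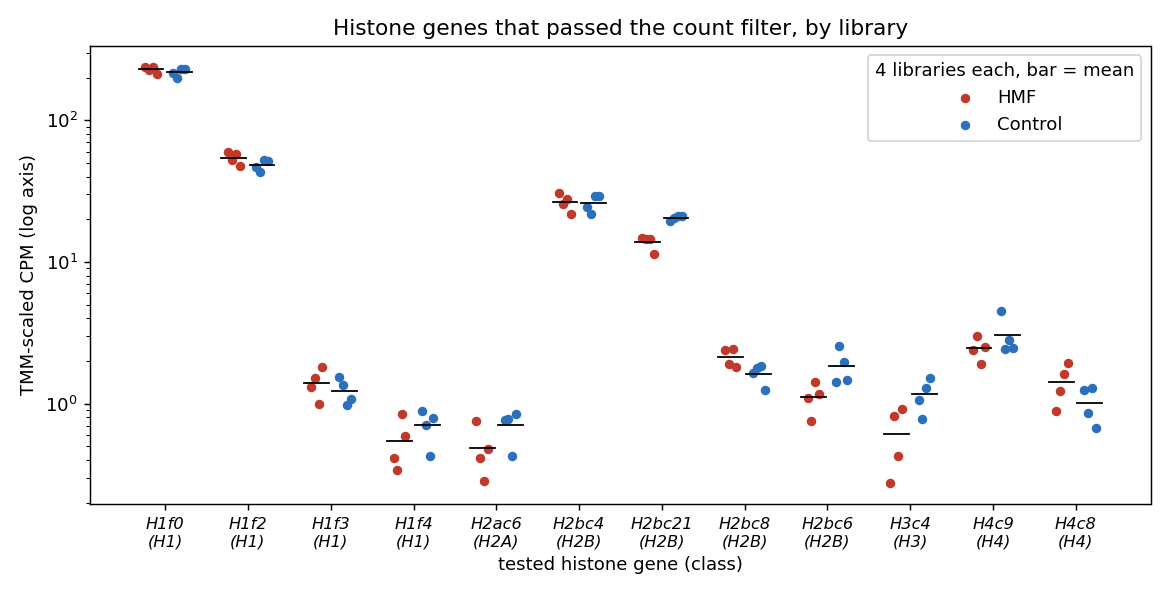
Level of each tested histone gene in every library, as TMM-scaled CPM on a log axis, with HMF libraries in red, Control libraries in blue and the mean of 4 as a bar. H2bc21 separates, with 11.4 to 14.7 CPM in HMF against 19.5 to 21.2 CPM in Control, and most other genes overlap.

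H1f0, the replacement linker histone known to accumulate in resting and differentiated cells, had the highest level. It lies on chromosome 15 at 79028450 to 79030504 (GRCm38, plus strand) and has a single exon. TMM-scaled CPM, the count relative to a library size corrected for composition, was 238, 227, 238 and 212 in HMF 1 to 4, against 214, 199, 229 and 230 in Control 1 to 4. The groups overlapped, and the highest and lowest libraries differed by little. The log2 fold change was 0.07 ± 0.07 (SE, adjusted p = 0.495 by edgeR), with a 95% interval of −0.08 to 0.22, so a rise of more than 0.22 on the log2 scale lay outside the interval.

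H1f2 encodes a somatic linker histone and is the most counted replication-dependent gene of the set. It lies on chromosome 13 at 23738808 to 23740367 (GRCm38, plus strand). Its level was 59.5, 52.2, 57.5 and 47.4 CPM in HMF 1 to 4, against 46.8, 42.8, 52.6 and 51.5 CPM in Control 1 to 4. The groups overlapped, and HMF 4 was the lowest HMF library. The log2 fold change was 0.16 ± 0.09 (SE, adjusted p = 0.229 by edgeR; 95% interval −0.04 to 0.36). The linker genes H1f3 and H1f4 had far lower levels. H1f3 averaged 1.40 ± 0.348 CPM in HMF and 1.23 ± 0.259 CPM in Control (log2 fold change 0.20 ± 0.25), and H1f4 averaged 0.548 ± 0.225 CPM in HMF and 0.703 ± 0.197 CPM in Control (−0.36 ± 0.36). Neither passed the test.

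H2bc21, the gene called H2BE in mouse olfactory neurons, where its protein is known to replace other H2B, was the gene that fell. It lies on chromosome 3 at 96221119 to 96223738 (GRCm38, plus strand), away from the large cluster on chromosome 13. Counts were 215, 211, 206 and 213 in HMF 1 to 4, against 329, 286, 348 and 376 in Control 1 to 4. As CPM these were 14.7, 14.4, 14.6 and 11.4 in HMF 1 to 4, against 19.5, 20.3, 21.2 and 21.2 in Control 1 to 4. Every HMF library lay below every Control library, and HMF 4 was the lowest. The mean was 13.8 ± 1.60 CPM in HMF and 20.5 ± 0.835 CPM in Control (SD, n = 4 each), and the log2 fold change was −0.58 ± 0.10 (SE; edgeR adjusted p = 0.00151; 95% interval −0.80 to −0.36). Without HMF 4 the log2 fold change was −0.49 (adjusted p = 0.00149 by edgeR), and over all alternatives run it was −0.62 to −0.49 with an adjusted p of at most 0.0123.

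The ratio of H2bc21 to other histone genes of the same library does not depend on library scaling. It is given as a description, because H2bc21 was picked for it after its fall was seen. The log2 ratio of its count to that of H1f0 averaged −4.06 ± 0.109 in HMF and −3.41 ± 0.0781 in Control. To H1f2 it averaged −1.98 ± 0.0865 in HMF and −1.23 ± 0.108 in Control, and to H2bc4 −0.94 ± 0.0936 in HMF and −0.33 ± 0.166 in Control (SD, n = 4 each). The groups did not overlap in any of the 3 ratios, which share the same numerator. A ratio shows unequal change and not which of the genes changed.

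H2bc4 encodes a canonical H2B and lies on chromosome 13 at 23684199 to 23692908 (GRCm38, plus strand), with 2 exons in its longest annotated transcript. Its level was 30.8, 25.7, 27.9 and 21.9 CPM in HMF 1 to 4, against 24.3, 21.9, 29.1 and 29.1 CPM in Control 1 to 4. The groups overlapped throughout. The log2 fold change was 0.02 ± 0.12 (SE, adjusted p = 0.917 by edgeR; 95% interval −0.25 to 0.30). H2bc8 averaged 2.14 ± 0.314 CPM in HMF and 1.63 ± 0.267 CPM in Control (log2 fold change 0.39 ± 0.21, adjusted p = 0.192 by edgeR). H2bc6 had 1.10, 0.752, 1.42 and 1.18 CPM in HMF 1 to 4, against 1.42, 2.56, 1.95 and 1.46 CPM in Control 1 to 4. All its HMF libraries lay below its Control libraries, HMF 3 and Control 1 differing by less than the rounding, and with a log2 fold change of −0.72 ± 0.27 it did not pass (unadjusted p = 0.0233, adjusted p = 0.0751 by edgeR).

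The other core classes rested on few counts. H2ac6, the only tested H2A gene, had 0.754, 0.410, 0.283 and 0.481 CPM in HMF 1 to 4, against 0.769, 0.782, 0.427 and 0.844 CPM in Control 1 to 4. The groups overlapped, and the log2 fold change of −0.54 ± 0.36 did not pass (adjusted p = 0.301 by edgeR). H3c4, the only tested H3 gene, had 4, 12, 6 and 17 counts in HMF 1 to 4, against 18, 11, 21 and 27 counts in Control 1 to 4. That is 0.274, 0.821, 0.425 and 0.909 CPM in HMF 1 to 4, against 1.06, 0.782, 1.28 and 1.52 CPM in Control 1 to 4. HMF 2 and HMF 4 overlapped with Control 2. Its log2 fold change was −0.91 ± 0.37 (SE, unadjusted p = 0.0307, adjusted p = 0.0917 by edgeR). Without HMF 4 it was −1.20 with an adjusted p of 0.0494 by edgeR, so the call turned on 1 library.

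Neither tested H4 gene passed. H4c9 had 2.40, 3.01, 1.91 and 2.51 CPM in HMF 1 to 4, against 4.50, 2.42, 2.81 and 2.48 CPM in Control 1 to 4. Control 1 was the high value, and the log2 fold change was −0.31 ± 0.24 (adjusted p = 0.372 by edgeR). Without Control 1 it was −0.06. H4c8 had 0.891, 1.23, 1.63 and 1.93 CPM in HMF 1 to 4, against 1.24, 0.853, 1.28 and 0.676 CPM in Control 1 to 4. HMF 4 was highest and Control 4 lowest, and the log2 fold change was 0.50 ± 0.31 (adjusted p = 0.264 by edgeR; 95% interval −0.18 to 1.17). Intervals of this width do not show that the genes stayed level. In counts simulated for this comparison over 14844 genes, the test recovered 57.1% of the genes set to a 1.5-fold change and 90.8% at a 2-fold change. The changed genes were drawn at random from all levels. Far fewer genes were changed than in the data, with 170 calls against 4030. The adjustment for many tests depends on this number, so these rates need not hold for the data. The rate for genes with as few counts as H4c8 or H3c4 was not worked out.

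Of the 31 genes below the filter, the most counted were H2bc9 with 91 counts over the 8 libraries, H4c14 with 72, H4c4 with 60, H2ac7 with 49 and H3c15 with 46. The groups overlapped in 29 of the 31, all but H4c1 and H1f8, which had 36 and 28 counts in all. The share over all genes below the filter was not worked out. Of all tested genes, all HMF libraries lay below all Control libraries for 14.4% and above for 14.7%. H4c1 and H1f8 were singled out after their values were seen, so their values are a description. H4c1 had 4, 2, 2 and 2 counts in HMF 1 to 4, against 6, 7, 5 and 8 in Control 1 to 4. The germ cell linker gene H1f8 had 5, 3, 8 and 5 counts in HMF 1 to 4, against 3, 2, 0 and 2 in Control 1 to 4, and was higher in HMF as CPM in every library. Neither was tested. H1f10, the other replacement linker gene, had no count in any library. Its row overlaps other rows on both strands, and the part of this in the 0 was not tested. The lowest sums above 0 were single counts for H2ac10, H2bc1, H2bc14 and H2bc23.

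Summed by class, the H1 genes other than H1f0 had 56.9 ± 5.46 CPM in HMF and 51.0 ± 4.20 CPM in Control, and the H2B genes 44.6 ± 5.66 CPM in HMF and 51.4 ± 3.89 CPM in Control (SD, n = 4 each). The H2A sum was 0.993 ± 0.247 CPM in HMF and 1.29 ± 0.352 CPM in Control, and the H4 sum 5.18 ± 1.13 CPM in HMF and 5.97 ± 1.50 CPM in Control. The libraries of the groups overlapped in these 4 sums. The H3 sum was 1.17, 2.26, 1.06 and 1.82 CPM in HMF 1 to 4, against 2.96, 2.49, 3.05 and 2.81 CPM in Control 1 to 4. All HMF libraries were lower for H3, on 17, 33, 15 and 34 counts in HMF 1 to 4 against 50, 35, 50 and 50 in Control 1 to 4. Sums over the set were given no test. The 68 rows other than H1f0, H1f2, H2bc4 and H2bc21 summed to 14.7 ± 1.31 CPM in HMF and 17.4 ± 2.10 CPM in Control (SD, n = 4 each), with overlap.

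**Figure D3:**
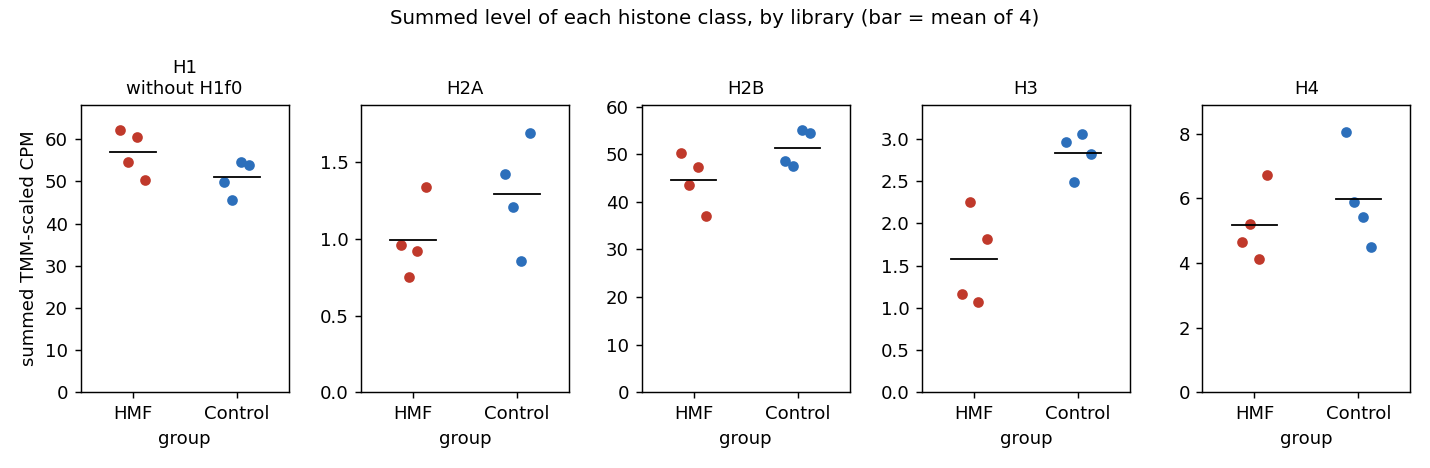
Summed TMM-scaled CPM of each histone class in the 4 HMF libraries (red) and the 4 Control libraries (blue), with the mean as a bar and H1f0 left out of H1; each panel has its own axis from 0. The groups separate in H3, with 1.06 to 2.26 CPM in HMF against 2.49 to 3.05 CPM in Control, and overlap in the other panels.

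Replacement and variant histones, most of them outside the cluster names, were measured in the same libraries. Of 12 listed genes, H1f0 and H1f10 among them, 10 were tested, 4 fell and 1 rose (edgeR, median log2 fold change −0.15). Against the 13.0% lower and 13.7% higher among all tested genes, that is 40% lower and 10% higher of 10 genes. Cenpa, the centromeric H3, had 59.6, 55.5, 55.2 and 73.9 CPM in HMF 1 to 4, against 190, 232, 159 and 165 CPM in Control 1 to 4. It fell in HMF, with every HMF library below every Control library, and the log2 fold change was −1.61 ± 0.13 (SE; edgeR adjusted p = 6.8e-06). H2ax, the H2A variant phosphorylated at DNA breaks, is known to make both a stem-loop mRNA without a tail and a polyadenylated one. It averaged 20.2 ± 1.19 CPM in HMF and 39.3 ± 2.96 CPM in Control and fell by 0.96 ± 0.08 on the log2 scale (adjusted p = 8.27e-06 by edgeR). The H2A.Z genes H2az1 and H2az2 fell by 0.73 ± 0.12 and by 0.83 ± 0.07 on the log2 scale. H3f3b, a gene of the replacement histone H3.3, rose by 0.54 ± 0.08, with 1434 ± 148 CPM in HMF and 986 ± 55.5 CPM in Control (adjusted p = 5.75e-04 by edgeR). The second H3.3 gene, H3f3a, had a log2 fold change of −0.07 ± 0.09 and did not pass. H2aj (−0.15), Macroh2a1 (−0.16) and H3f3c (−0.13) did not pass either. The difference in how often the lists changed was not tested.

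**Figure D4:**
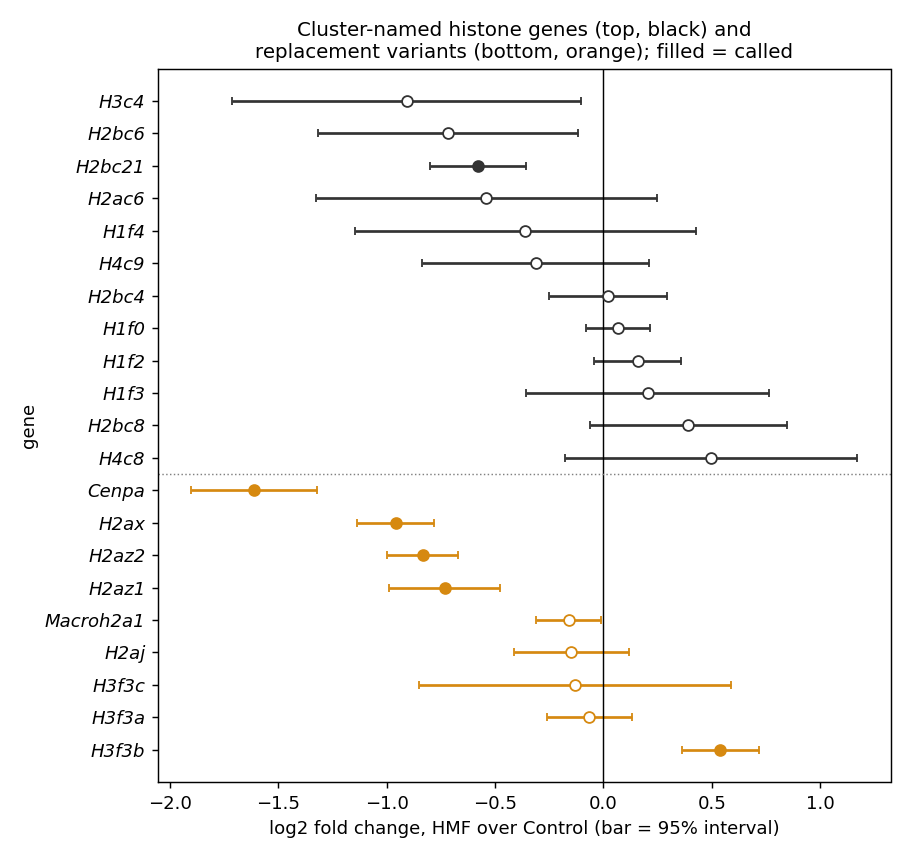
Log2 fold change of HMF over Control for the 12 tested cluster-named histone genes (black, top) and 9 tested replacement variants (orange, bottom), with 95% intervals; filled points passed at an adjusted p below 0.05. Among the cluster-named genes H2bc21 is filled at −0.58, while Cenpa, H2ax, H2az2 and H2az1 are filled below 0 and H3f3b above it.

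Genes that form and degrade the tail-free histone mRNA end were examined as a list of 25, of which 24 were tested, 6 fell and 2 rose (edgeR, median log2 fold change −0.09). With 25% lower and 8.33% higher, against 13.0% and 13.7% of all tested genes, the share called in either direction was near that of all genes, 26.7%. Slbp, whose product binds the stem-loop, had 47.5, 44.0, 46.7 and 51.9 CPM in HMF 1 to 4, against 76.1, 78.7, 59.8 and 56.7 CPM in Control 1 to 4. All HMF libraries were lower, and Control 1 and 2 were the highest. It fell by 0.51 ± 0.11 on the log2 scale (adjusted p = 0.00576 by edgeR). Casp8ap2, which encodes FLASH, a protein of the cleavage machinery and of histone locus bodies, fell by 0.58 ± 0.14 (adjusted p = 0.0123 by edgeR), with 16.2 ± 1.36 CPM in HMF and 24.3 ± 5.17 CPM in Control. Mif4gd, whose product links SLBP to translation, fell by 0.33 ± 0.08 on the log2 scale. Ncbp2 of the cap-binding complex fell by 0.21 ± 0.06, the kinase gene Prkdc by 0.25 ± 0.08 and Eri1, which encodes an exonuclease that trims and degrades histone mRNA, by 0.20 ± 0.07. The last 3 calls were weak, being lost on leaving out 1 library in 6, 7 and 8 of 8 cases for Ncbp2, Prkdc and Eri1.

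Tut7, a uridylyltransferase gene whose product tags histone mRNA for decay, rose, with 147, 139, 142 and 145 CPM in HMF 1 to 4, against 91.5, 84.6, 93.4 and 91.2 CPM in Control 1 to 4. The groups were far apart, and the log2 fold change was 0.67 ± 0.05 (SE, adjusted p = 7.19e-06 by edgeR). Cpsf2, of the cleavage complex shared with polyadenylation, rose by 0.30 ± 0.08. That call was lost without Control 3, at 0.26, and without Control 4, at 0.25. The U7 particle genes Lsm10 (−0.08) and Lsm11 (−0.40, adjusted p = 0.0584 by edgeR) did not pass, and neither did Zfp473 (−0.51). Lsm11 passed without HMF 4, at −0.47, and in 5 of the 10 other alternatives, DESeq2 and limma-voom among them, so its call depends on the test. Without HMF 2, Zfp473 passed at −0.88. The endonuclease gene Cpsf3 (0.03), the scaffold gene Sympk (−0.13) and the decay factor genes Upf1 (−0.01), Lsm1 (0.18) and Tut4 (0.09) did not pass. Sympk passed in 3 of the 10 other alternatives, at −0.18 with library size alone and at −0.17 and −0.18 with limma on log2 FPKM.

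Regulators of histone gene transcription made a list of 19, all tested, of which 9 fell and 1 rose (edgeR, median log2 fold change −0.17). That is 47.4% lower and 5.26% higher, against 13.0% lower and 13.7% higher among all tested genes. Npat, the coactivator of histone loci that cyclin E with CDK2 phosphorylates, had 43.6, 38.2, 43.0 and 41.8 CPM in HMF 1 to 4, against 37.6, 44.2, 41.3 and 40.1 CPM in Control 1 to 4. The groups overlapped, with a log2 fold change of 0.03 ± 0.07 (adjusted p = 0.805 by edgeR; 95% interval −0.13 to 0.19). Hinfp, the activator of H4 genes, had a log2 fold change of 0.11 ± 0.07, and Pou2f1, the octamer-binding factor of H2B promoters, −0.03 ± 0.12, and neither passed. The kinase gene Cdk2 fell by 0.84 ± 0.18, with 346 ± 93.6 CPM in HMF and 619 ± 72.4 CPM in Control, and its activating phosphatase gene Cdc25a fell by 0.58 ± 0.10. Of the CCAAT-binding NF-Y subunit genes, Nfyc fell by 0.32 ± 0.07 and Nfya by 0.22 ± 0.06, while Nfyb (0.03) did not pass. Nfya lost its call without HMF 2, Control 1 or Control 3, at −0.21, −0.19 and −0.21. The S phase entry factor gene E2f1 fell, with 27.1 ± 1.71 CPM in HMF and 53.7 ± 2.79 CPM in Control, and so did E2f2, with 8.48 ± 1.07 CPM in HMF and 19.8 ± 3.05 CPM in Control (SD, n = 4 each). E2f3 (−0.01) did not pass. Ccne2, Trrap and Casp8ap2 were the other falls, and Cdkn1a, whose product inhibits cyclin-dependent kinases, was the rise. The other cyclin E gene, Ccne1, had 34.2 ± 10.4 CPM in HMF and 38.8 ± 8.16 CPM in Control. Its log2 fold change of −0.17 ± 0.20 did not pass. Ccne2 lost its call in 4 of 8 cases of leaving out 1 library and Trrap in 7.

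Promoter sequence was read because several of these regulators bind defined motifs. A window from 250 bases before to 50 bases after the start was taken from RefSeq on GRCm38.p6 for 62 of the 72 genes, H2bc21 and H2bc4 not among them, and motifs were searched on both strands. The octamer ATTTGCAT was present in 13 of the 62 windows, 7 of 14 for H2B and 6 of 17 for H2A, and in none for H1, H3 and H4, against 1.97% of 27025 genes. CCAAT was present in 51 of the 62, including all 17 H2A, all 14 H2B and all 10 H3 windows but 3 of 11 for H4, against 41.1% of all genes. TATAAA was present in 34 of the 62 and in 15.7% of all genes, and AAACACA in 9 of the 62, among them 5 of 10 for H1, and in 8.22% of all genes. The octamer regions of the H2B genes H2bc8 and H2bc6 that were tested are shown with the octamer in capitals, from chr13:23571325-23571384 (plus strand) and chr13:23585994-23586053 (minus strand), GRCm38.p6.

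H2bc8: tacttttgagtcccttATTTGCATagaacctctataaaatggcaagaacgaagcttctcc
H2bc6: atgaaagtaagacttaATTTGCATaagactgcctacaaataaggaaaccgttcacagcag

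The octamer starts 59 bases before the H2bc8 start and 67 bases before the H2bc6 start. H2bc8 also holds TATAAA behind the octamer within the window, and H2bc6 does not. The log2 fold changes given above for these genes, 0.39 for H2bc8 and −0.72 for H2bc6, had opposite signs and neither passed. A motif match describes the letters and does not show a bound site.

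Genes of DNA replication are active in the same phase of the cell cycle. Of 24 tested, 21 fell (87.5%) and none rose, with a median log2 fold change of −0.93 (edgeR). Among all tested genes 13.0% were called lower and 13.7% higher. None of the 24 rose at an unadjusted p under 0.05 or by DESeq2. Ccna2, the S phase cyclin gene, fell by 1.61 ± 0.17, the thymidine kinase gene Tk1 by 1.28 ± 0.15 and the helicase gene Mcm4 by 1.13 ± 0.14 on the log2 scale. Mcm6 (−0.26) and Rfc3 (−0.34) were among those that did not pass. Histone chaperones, which carry new histones to DNA, had 12 falls and 5 rises among 28 tested (median −0.13), or 42.9% lower and 17.9% higher, against 13.0% lower and 13.7% higher among all tested genes. Asf1b fell by 1.30 ± 0.14 on the log2 scale. Chaf1a, a gene of the assembly factor CAF-1, fell by 1.15 ± 0.13. Tonsl, whose product reads new H4 on replicated DNA, fell by 1.21 ± 0.15, and Hjurp, the chaperone of Cenpa, by 1.04 ± 0.08. Daxx, a chaperone of H3.3, rose by 1.54 ± 0.11, with 225, 253, 234 and 332 CPM in HMF 1 to 4, against 88.7, 93.2, 88.8 and 88.7 CPM in Control 1 to 4. HMF 4 was the highest, and all HMF libraries were far above Control. Of 16 polyadenylation genes, none fell and 1 rose (6.25%, against 13.7% of all tested genes), with a median of −0.04. That gene, Pcf11, rose by 0.35 ± 0.07 (adjusted p = 0.00227 by edgeR). Genes of the shared cleavage complex were counted in the mRNA end list instead, among them Cpsf2, which rose, and Cpsf3, which did not pass. None of the 16 fell by DESeq2, and 2 were lower and 2 higher at an unadjusted p under 0.05. Of all tested genes, 19.2% were lower at that threshold and 38.0% passed it in either direction.

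**Figure D5:**
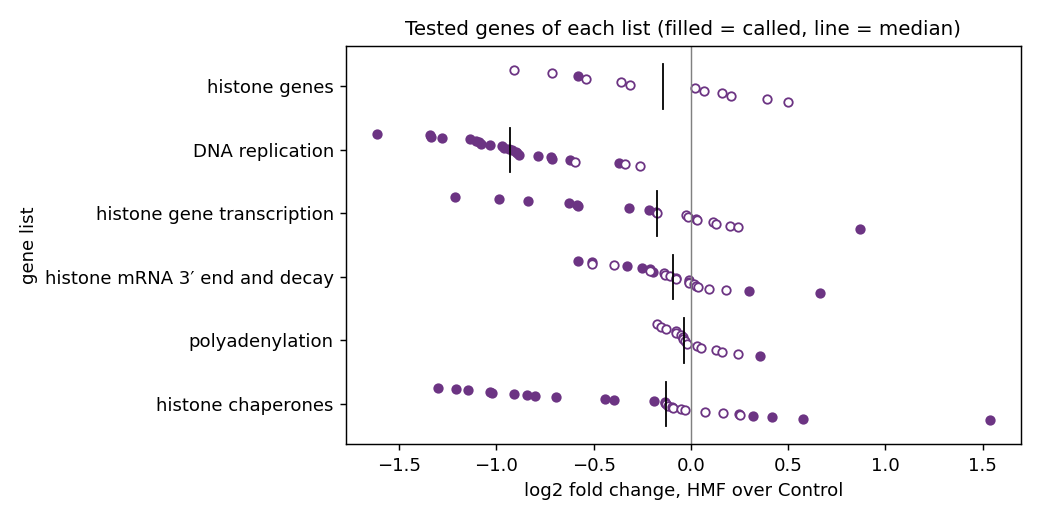
Log2 fold change of HMF over Control for the tested genes of 6 lists, one point per gene, filled where the adjusted p was below 0.05, with the median as a line. The cluster-named histone genes have a median of −0.14 and the DNA replication genes one of −0.93.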

How the data were processed

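Polyadenylated RNA of 8 B16-OVA libraries was sequenced after Trizol extraction and capture with TIANSeq kits, per the labels' protocols. The deposited table holds the authors' read counts per gene, not normalized, and the authors' FPKM values, the count divided by gene length and library total. The tools named were Trimmomatic, HISAT2 2.0.5, HTSeq and DESeq2, with build mm10, per the submitters' processing notes. The annotation used for counting, whether counting was stranded, and the other versions were not given in the sources used here. Positions in the table, whose build is unclear, served only to count genes by chromosome and to find rows that overlap. Printed positions come from GENCODE M21 or RefSeq.

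Samples were grouped by title. Counts were scaled by TMM, filtered with filterByExpr and tested with edgeR 4.0.16 (R 4.3.3, quasi-likelihood test, group as the only term) over 15082 genes, with Benjamini-Hochberg adjustment and calls at an adjusted p below 0.05. The 95% intervals use the t distribution. Total counts were 13973961 to 19295358 per library, and no row lacked a gene identifier. The test was run on simulated data (14844 genes), where 7 of 170 calls were false. Same-numbered libraries did not deviate together, with correlations of −0.319 to 0.225. HMF 4 deviated with Control 1 (0.363) and Control 2 (0.247), and against Control 3 (−0.358) and Control 4 (−0.319). The part of this in the results was not tested. Alternatives were other scalings and filters, leaving out each library, the replicate number as a block, DESeq2 1.42.0, limma 3.58.1 on counts and on log2 FPKM, and an adjusted p below 0.01. Ratios of H2bc21 to other genes, and shares without the most counted genes, were added after the data were seen. Sequences were searched with Python 3.11.15, and matplotlib 3.10.9 drew the figures.

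The histone genes and the other lists were chosen with earlier results of these data known. Any cluster-named gene may be named. Values in every library are given for the 2 tested genes of each class with the highest CPM and for called ones, and for other lists all genes of the first 2 (mRNA end, transcription) and the 5 smallest adjusted p of the rest may be named, with uncalled genes given by value. H3c4, H2bc6, H4c1 and H1f8 were singled out after their values were seen.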

Additional observations from a re-analysis of the deposited data

Results flagged for a closer look

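In groups of 4 libraries, a library was singled out when its gap to the nearest other library, as a share of the group's range, exceeded Dixon's 95% critical value. Of 152 groups checked, 8 did so, and chance alone does this in about 1 of 20 groups. H2bc21 was 11.4 CPM in HMF 4, against 14.4 to 14.7 CPM in the other HMF libraries. The histone genes other than H1f0, H1f2, H2bc4 and H2bc21 took 0.00162% of the counts in HMF 4, against 0.00138 to 0.00142% in the other HMF libraries, so HMF 4 was low for H2bc21 and high for this sum. Cdc25a was 46.6 CPM in HMF 4, against 39.0 to 39.9 CPM, and Zfp473 was 2.53 CPM in HMF 2, against 1.06 to 1.18 CPM in the other HMF libraries. Among Control libraries, Cdkn1a was 762 CPM in Control 1, against 653 to 669 CPM in the others. Control 2 had 93.2 CPM for Daxx, against 88.7 to 88.8 CPM, and 293.0 CPM for Srrt, against 218 to 229 CPM. Yy1 was 149.5 CPM in Control 4, against 140 to 142 CPM in the other Control libraries.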

How the results depend on the processing

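The number of histone genes called lower was 1 to 2 when 1 library was left out. It was 2 without HMF 4 and 2 with limma on log2(FPKM + 1), H3c4 being the second, and the number called higher was 0 (edgeR) in each fit that left out a library. Genes called over the whole table numbered 1049 lower and 1239 higher at an adjusted p below 0.01, and 1493 to 1882 lower and 1620 to 2048 higher on leaving out 1 library. With library size alone 2435 were lower and 1743 higher, against 1957 lower and 2073 higher with TMM, and limma on log2(FPKM + 1) gave 2311 lower and 1625 higher. No scaling moved the median of all genes by more than 0.1. The log2 ratio of the histone share was −0.28 without H1f0, H1f2, H2bc4 and H2bc21, against −0.01 with them. Without a count filter, 43 histone genes were tested and 1 was called. With the replicate number as a block, 1322 genes were lower and 1463 higher, and H2bc21 kept its call at −0.58 (adjusted p = 0.0123 by edgeR). The numbers do not pair the libraries, since the correlation of same-numbered deviations was below 0.1 in 3 of 4 pairs. Of 1257 values of 70 named genes under alternatives, 1193 kept their side of the threshold, 51 lost a call and 13 gained one, and no called value changed sign, while 43 uncalled values did. At about 1 CPM and below, few counts limit the precision. For the 60 untested histone genes as a group, depth, shared sequence, overlap of rows, poly(A) capture and lack of expression cannot be told apart. Some of them, such as H1f5 and H1f10, shared no 50-base stretch with another gene.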
